A study of Mus musculus with 24 samples.

Results

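The 8 genes described here are Txnip, the arrestin-domain genes Arrdc1, Arrdc2, Arrdc3 and Arrdc4, and the transcription factor genes Mlx, Mlxip and Mlxipl. They were taken by annotated gene symbol, and not by their levels, from 2 oligonucleotide array designs, MA and MB. The symbols matched 13 of 45137 non-control probe sets, and 9 of these, from 6 of the genes, were bright enough to be tested among 27081 probe sets. The arrays measured total RNA of C2C12 cells, a mouse myoblast line that can fuse into multinucleated myotubes. The 12 cultures combined a medium, GM or DM, with 5 or 25 mM glucose, 3 for each of the 4 combinations, and each culture was hybridised once to each design, which makes 24 arrays. GM and DM are the titles' abbreviations, which in this line commonly stand for growth and differentiation medium. The labels name no genetic change, no other agent, no culture time and no other component of the media, and all cultures are of the 1 line. The series states that it asks about calorie restriction and myoblast differentiation, and glucose is the nutrient that the titles name. The cultures are numbered replicates, and nothing says whether they were started separately, so the p-values cover the spread among these cultures, which may be technical.

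Txnip encodes thioredoxin-interacting protein, an arrestin-fold protein that binds reduced thioredoxin and lowers glucose uptake by helping to internalise glucose transporters. Its transcription is known to rise with intracellular glucose through MondoA (gene Mlxip) or ChREBP (gene Mlxipl), which sense glucose 6-phosphate and bind DNA only together with their partner Mlx. In muscle MondoA is the main form, while ChREBP is best known from liver and fat. The Arrdc proteins share the arrestin fold of Txnip and serve as adaptors that bring NEDD4-family ubiquitin ligases to membrane proteins. Arrdc4 is a further known MondoA target, and Arrdc3 is known for its part in the internalisation of the beta2-adrenergic receptor.

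Values are linear probe set intensities, and differences are in log2 of the intensity plus 20, which understates changes of dim probe sets. Every level belongs to its own probe set, so levels of different probe sets were not set against each other. The marker sums below do add such levels, and in them the brightest probe sets weigh most. Of 9 markers of myoblast and myotube identity, all tested, 6 were called higher in DM than in GM at each glucose level. Of all tested genes, 12.2% were called higher at 25 mM and 9.5% at 5 mM. Among the 6, Acta1, Myog and Myh3 averaged only 6.33 to 23.3 in the GM groups, so they were tested through their DM readings. Myod1, Myf5 and Pax7 were not called, at 0.30, -0.31 and -0.30 at 25 mM and 0.29, -0.38 and 0.07 at 5 mM. The summed intensity of the 9 ran from 2944 to 3452 over the 6 cultures in GM and from 18154 to 36273 over the 6 in DM. Among markers of other cells, Adipoq, Fabp4, Pparg, Alpl, Ibsp, Ptprc, Cd68, Pecam1 and Cdh5 were too dim to be tested. The summed adipocyte markers were 379 to 503 in GM and 91.2 to 188 in DM, of which Cebpa alone read 217 to 341 and 37.4 to 70.0. The adipocyte gene Cebpa was called lower in DM (log2 difference -1.91 at 25 mM and -2.04 at 5 mM). The monocyte gene Cd14 was also called lower in DM, by at least 1.32 at 25 mM and with -1.05 at 5 mM. At 25 mM its DM cultures averaged 34.0, below 35.5, the mean that a probe set of MA needed to be tested, here called the filter intensity. The adipocyte gene Lpl was called lower in DM at 25 mM, with a fitted difference of -1.13 (limma adjusted p = 0.000547). Its DM mean of 25.2 was also below the filter intensity, and the fall was at least 0.83. At 5 mM Lpl was not called (-0.50, limma adjusted p = 0.0807). The summed blood and endothelial markers were 152 to 263 in GM and 82.1 to 146 in DM, and the summed osteoblast markers were 93.1 to 297 in GM and 82.5 to 237 in DM. The part of these markers in the differences between media was not tested. The 18S control probe sets of the arrays fell into a low class of 4 cultures (11.5 to 19.8 on MA) and a high class of 8 (159 to 908 on MA). The low class held 2 of 3 cultures in GM at 5 mM, none in GM at 25 mM and 1 in each DM group.

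The promoter of Txnip is shown because it carries the element through which glucose is known to act on this gene, and those of Arrdc4 and Arrdc3 are shown for contrast. Each sequence is the 250 bases before the annotated start, 5′ to 3′ on the strand of the gene, from RefSeq's annotation of GRCm38.p6. The windows lie at chr3:96557707-96557956 on the plus strand for Txnip, at chr7:68749239-68749488 on the minus strand for Arrdc4, and at chr13:80883134-80883383 on the plus strand for the most upstream start of Arrdc3. Capitals mark CACGNG (an E-box-like motif) and CCAAT on either strand, and GTAAACA (a motif of the forkhead type).
Txnip promoter: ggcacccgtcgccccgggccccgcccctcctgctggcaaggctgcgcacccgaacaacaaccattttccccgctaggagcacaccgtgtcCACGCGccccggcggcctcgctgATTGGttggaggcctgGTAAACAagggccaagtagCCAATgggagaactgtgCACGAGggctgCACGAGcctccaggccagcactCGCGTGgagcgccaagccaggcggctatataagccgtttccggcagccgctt
Arrdc4 promoter: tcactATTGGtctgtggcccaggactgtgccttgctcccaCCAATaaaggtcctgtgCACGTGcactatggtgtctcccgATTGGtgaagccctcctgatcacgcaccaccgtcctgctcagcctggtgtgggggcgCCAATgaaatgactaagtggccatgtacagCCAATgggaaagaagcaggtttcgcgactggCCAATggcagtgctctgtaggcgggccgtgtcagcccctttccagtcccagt
Arrdc3 promoter: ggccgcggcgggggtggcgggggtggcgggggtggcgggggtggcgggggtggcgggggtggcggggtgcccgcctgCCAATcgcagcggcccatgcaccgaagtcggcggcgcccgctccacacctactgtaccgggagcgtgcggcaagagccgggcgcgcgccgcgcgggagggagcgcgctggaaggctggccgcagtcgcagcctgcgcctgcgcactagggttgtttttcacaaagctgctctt

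The Txnip window held 4 matches to CACGNG, and 2 of these formed the 17-base pair CACGAGGGCTGCACGAG at positions -85 to -69 from the start. This arrangement, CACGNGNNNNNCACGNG with both copies on the same strand, is 1 form of a carbohydrate response element. Only this form was searched, so its count leaves out elements built otherwise. CACGNG was found in 23.5% of 32851 promoter windows of the same length, 4 or more matches in 0.244%, and the spaced pair in 0.0457%, which is 15 windows. Txnip also held 2 matches to CCAAT, 1 match to GTAAACA at -121 to -115, a motif found in 3.17% of windows, and TATAA on the gene strand at -25 to -21, found in 16% of windows.

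The Arrdc4 window held the palindrome CACGTG once, at -193 to -188, a motif found in 6.02% of windows, and 6 matches to CCAAT, of which 4 or more were found in 0.84% of windows. CCAAT at least once was found in 33.8% of windows. The Arrdc3 window held no CACGNG and 1 CCAAT. Of the other members, Mlx held CACGTG once and Mlxipl held it once before its upstream start. A match describes the letters of a window and does not show that a factor binds there.

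**Figure D1:**
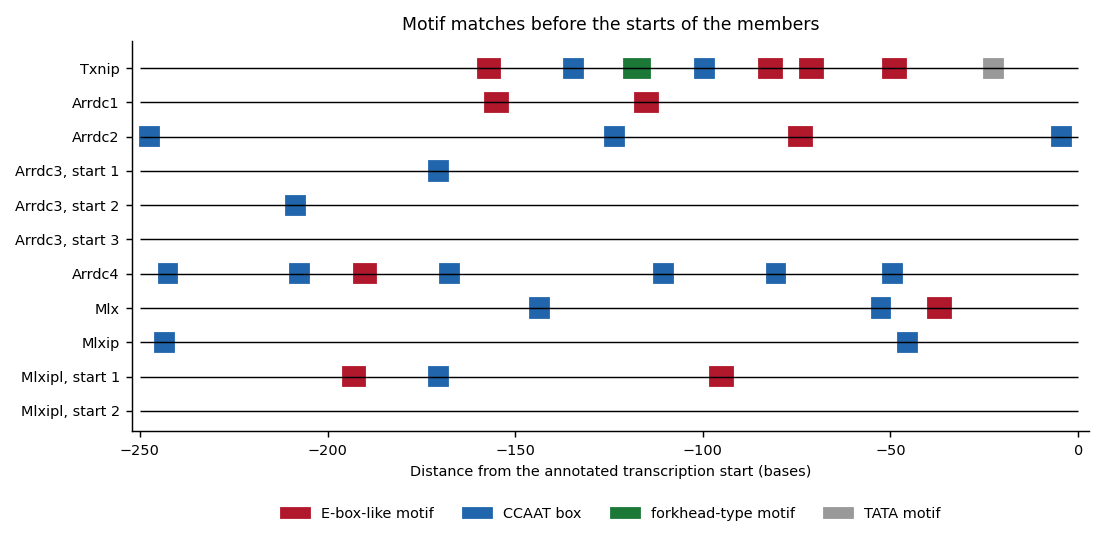
Positions of motif matches in the 250 bases before each annotated start of the 8 genes, 1 line per start, with the distance from the start in bases on the x axis and coloured blocks for E-box-like motifs, CCAAT boxes, the forkhead-type motif and the TATA motif. Txnip has 4 E-box-like motifs, 2 of them in a close pair, and Arrdc4 has 6 CCAAT boxes.

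Apart from Txnip, 13 genes had the spaced pair before a start. Of the 14 genes with it, 9 were tested. The log2 difference between 5 and 25 mM glucose in GM was -0.32 to 0.40 in the other tested genes, while in Txnip it was -1.30, and none of the 9 was called by limma. For DM against GM at 25 mM, Txnip and Irak1bp1 (log2 difference -0.51, limma adjusted p = 0.0164) were called, both lower. That is 2 of the 9, near the share over all tested genes, of which 28.1% were called and 15.9% were called lower.

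Txnip lies at chr3:96557957-96561857 and was read by 2 probe sets on MA. On 1415996_at the 3 cultures in GM at 25 mM read 175, 219 and 267. The 3 cultures in GM at 5 mM read 70.3, 70.8 and 89.8. In DM the intensities were 98.1, 73.6 and 72.1 at 25 mM and 48.0, 75.2 and 125 at 5 mM. Every culture in GM at 25 mM thus read above each of the other 9 cultures, whose groups overlapped one another. Group means were 220.3 ± 46.3 in GM at 25 mM, 77.0 ± 11.1 in GM at 5 mM, 81.3 ± 14.6 in DM at 25 mM and 82.9 ± 39.3 in DM at 5 mM (SD, n = 3 in each).

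The probe set 1415997_at gave the same order of the highest group with more spread. Its cultures in GM at 25 mM read 85.0, 164 and 205, against 67.3, 71.6 and 40.9 in GM at 5 mM. The DM readings were 46.6, 48.6 and 80.0 at 25 mM and 41.7, 120.1 and 69.9 at 5 mM. Here 1 culture in DM at 5 mM, at 120.1, lay above the lowest culture in GM at 25 mM. The means were 151 ± 60.9, 59.9 ± 16.6, 58.4 ± 18.7 and 77.2 ± 39.7 in the same order of groups (SD, n = 3 in each).

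At 25 mM glucose, Txnip was lower in DM than in GM. On 1415996_at it fell by 1.24 on the log2 scale (SE 0.25, limma with Benjamini-Hochberg adjustment over all tested probe sets of MA, adjusted p = 0.00125), a 2.36-fold difference. On 1415997_at it fell by 1.08 (SE 0.32, adjusted p = 0.0177). The groups did not overlap on either probe set, and the exact two-sided permutation test gave p = 0.1 for both, the smallest value that 3 against 3 cultures allow. The arrays read bulk RNA, so fewer cells with the transcript and less of it per cell cannot be told apart.

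At 5 mM glucose Txnip was not called between media. The log2 difference between DM and GM was 0.02 (SE 0.25, adjusted p = 0.962) on 1415996_at and 0.22 (SE 0.32, adjusted p = 0.668) on 1415997_at, and both changed sign under some other settings. The groups overlapped on both probe sets.

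The glucose comparison of Txnip within GM did not pass the adjusted threshold. The log2 difference of 5 against 25 mM was -1.30 on 1415996_at (SE 0.25, unadjusted p = 0.000113, adjusted p = 0.269) and -1.05 on 1415997_at (SE 0.32, unadjusted p = 0.00579, adjusted p = 0.404). The first was the 5th smallest p of 13575 on its design. All cultures at 5 mM read below all cultures at 25 mM on both probe sets, with an exact permutation p of 0.1 each, again the smallest possible. With array weights both probe sets were called in this comparison (adjusted p = 0.0151 and 0.0444), and under no other of the alternatives was either called.

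Since 2 of the 3 cultures in GM at 5 mM had low 18S controls, the glucose difference in GM was also taken with the 18S class as a block. It was then -1.18 on 1415996_at (adjusted p = 0.444) and -1.50 on 1415997_at (adjusted p = 0.280). With high-18S cultures alone, which leave 1 culture in GM at 5 mM, it was -1.11 and -1.42. The difference between media at 25 mM was -1.18 and -1.31 with the block, and both were called (adjusted p = 0.00111 and 0.000674).

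Within DM, Txnip did not differ detectably between the glucose levels. The log2 difference of 5 against 25 mM was -0.04 on 1415996_at (SE 0.25, adjusted p = 0.979) and 0.26 on 1415997_at (SE 0.32, adjusted p = 0.895). The glucose difference in DM minus that in GM was 1.26 (SE 0.35, unadjusted p = 0.00272, adjusted p = 0.165) and 1.31 (SE 0.46, unadjusted p = 0.0127, adjusted p = 0.286), so that a different glucose response in the 2 media was not called. With the 18S class as a block it was 1.76 on 1415997_at and passed (adjusted p = 0.0350), and on 1415996_at it was 1.14 and did not (adjusted p = 0.173).

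The 5 genes whose levels over the 12 cultures were most like those of Txnip 1415996_at were Nr6a1 (Pearson r = 0.94 of log2 values), Sox9 (0.92), Atf7 (0.91), Il20 (0.91) and Cd2bp2 (0.90). They were picked for this likeness, and the cultures share groups and arrays, so the coefficients carry no test. All 5 had their highest group mean in GM at 25 mM. Atf7, a transcription factor of the ATF family, averaged 139 there and 76.0, 80.8 and 82.4 in GM at 5 mM, DM at 25 mM and DM at 5 mM. Sox9, a regulator of cartilage formation, averaged 114 there and 70.8, 66.4 and 72.1 in the same other groups.

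**Figure D2:**
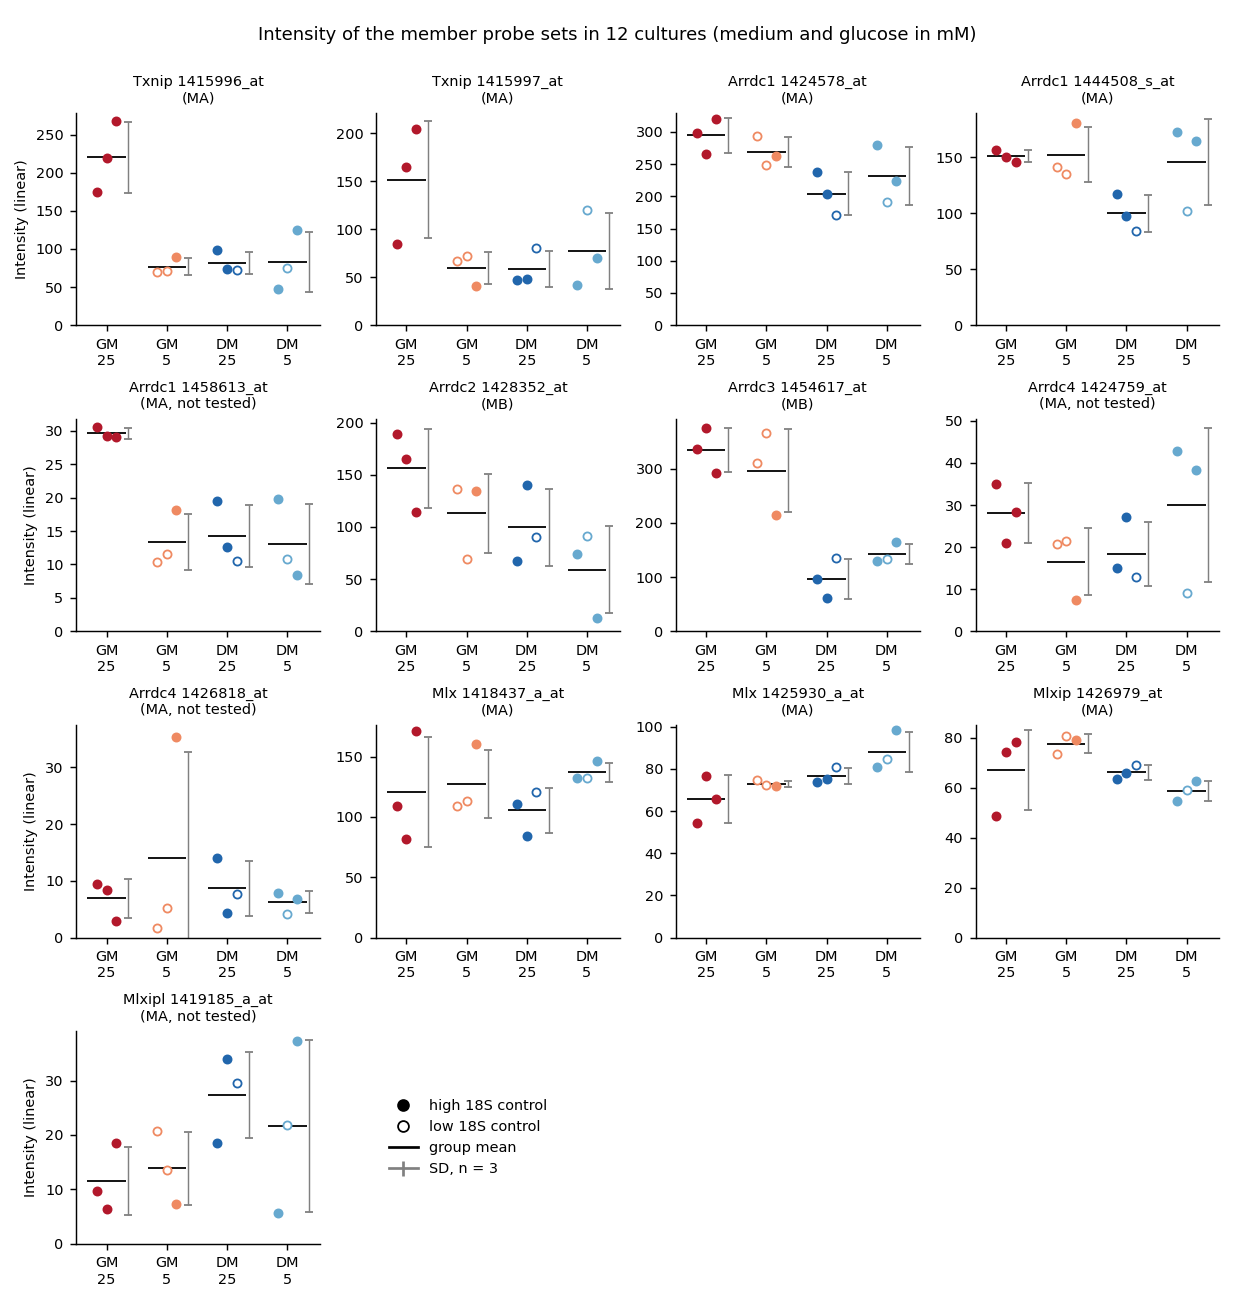
Linear intensity of each of the 13 member probe sets (y axis) in the 12 cultures, grouped by medium and glucose in mM (x axis), with a horizontal line for the group mean, a bar for the SD (n = 3), and open symbols for cultures with low 18S controls. On Txnip 1415996_at the cultures in GM at 25 mM read 175 to 267 and all others 48.0 to 125, and on Arrdc3 all DM cultures lie below all GM cultures.

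Arrdc3, at chr13:80883384-80896042 and read by 1454617_at on MB, was lower in DM. In GM its cultures read 336, 375 and 292 at 25 mM and 310.1, 366 and 214 at 5 mM. In DM they read 96.0, 61.0 and 135 at 25 mM and 130.2, 133 and 165 at 5 mM. All 6 DM cultures thus lay below all 6 GM cultures. Group means were 334 ± 41.4, 297 ± 76.9, 97.2 ± 36.8 and 143 ± 19.2 (SD, n = 3 in each) in GM at 25 mM, GM at 5 mM, DM at 25 mM and DM at 5 mM.

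At 25 mM Arrdc3 fell by 1.64 on the log2 scale (SE 0.32, limma adjusted p = 0.00222), a 3.11-fold difference. At 5 mM the difference was -0.94 (SE 0.32, unadjusted p = 0.00876, adjusted p = 0.102), which did not pass, although the groups did not overlap. It passed with array weights (-1.08, adjusted p = 0.0229), and it was -0.49 (adjusted p = 0.804) with high-18S cultures alone, where GM at 5 mM holds 1 culture that is assumed to vary like the other groups. The glucose difference was -0.19 in GM (SE 0.32, adjusted p = 0.917) and 0.52 in DM (SE 0.32, adjusted p = 0.936). The interaction was 0.70, which did not pass either (adjusted p range over the alternatives 0.624 to 0.997), so Arrdc3 was called between media at 25 mM and for nothing else.

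Arrdc1, at chr2:24925352-24935335, had 3 probe sets on MA, which did not all give the same pattern. On 1424578_at its cultures read 298, 265 and 319.6 at 25 mM and 294, 249 and 262 at 5 mM in GM. In DM they read 238, 204 and 171 at 25 mM and 280.0, 191 and 224 at 5 mM. The 25 mM groups of the 2 media did not overlap, and the 5 mM groups did.

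On 1444508_s_at, Arrdc1 read 157, 151 and 146 at 25 mM and 141, 135 and 181 at 5 mM in GM. Its DM cultures read 118, 98.0 and 84.4 at 25 mM and 172, 102 and 164 at 5 mM. The group in DM at 25 mM was the low one here, with a single overlap at the low-18S culture that read 102 in DM at 5 mM.

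At 25 mM Arrdc1 fell by 0.49 on 1424578_at (SE 0.16, adjusted p = 0.0228) and by 0.52 on 1444508_s_at (SE 0.19, adjusted p = 0.0440), the largest adjusted p among the calls of the members. Centring each array on its median left -0.30 (adjusted p = 0.154) and -0.32 (adjusted p = 0.193). The call of 1444508_s_at was also lost with the replicate number of the titles as a replicate block (adjusted p = 0.0510). At 5 mM the differences between media were -0.21 and -0.07 (adjusted p = 0.364 and 0.824). Within DM the second probe set had a glucose difference of 0.45 (SE 0.19, unadjusted p = 0.0313, adjusted p = 0.392).

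The remaining Arrdc1 probe set, 1458613_at, was too dim to be tested. It read 30.6, 29.2 and 29.0 in GM at 25 mM and 8.47 to 19.8 in the other 9 cultures. It thus had the order of Txnip rather than that of the brighter Arrdc1 probe sets, which overlapped between the glucose levels in GM. Probe sets of this brightness lie near background, and without the filter it was not called in any comparison.

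Arrdc2, at chr8:70835129-70839720, had 1 probe set, 1428352_at on MB. It read 189, 165 and 114 at 25 mM and 136, 69.1 and 134 at 5 mM in GM. In DM the intensities were 67.8, 140.0 and 90.8 at 25 mM and 73.7, 91.3 and 12.5 at 5 mM. All pairs of groups that were compared overlapped. The difference between media was -0.58 at 25 mM (SE 0.49, adjusted p = 0.608) and -0.89 at 5 mM (SE 0.49, adjusted p = 0.428), and the glucose difference was -0.43 in GM (adjusted p = 0.859) and -0.73 in DM (adjusted p = 0.948). The standard error was the largest among the member probe sets, so that differences of this size could not be told from none.

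Arrdc4, at chr7:68736994-68749238, could not be followed on these arrays, since both its probe sets were too dim to be tested. On 1424759_at it read 35.0, 20.9 and 28.3 at 25 mM and 20.8, 21.4 and 7.37 at 5 mM in GM. The DM readings were 15.1, 27.1 and 13.0 at 25 mM and 42.8, 9.17 and 38.4 at 5 mM. On 1426818_at all cultures read 1.66 to 35.4. All groups overlapped on both. The genes most like 1424759_at over the 12 cultures were Ctrc (Pearson r = 0.86), Lyl1 (0.83), Tomm34 (0.83), Pla2g10 (0.83) and Socs1 (0.82), which at this brightness describes mostly dim probe sets, with group means of 24.5 to 59.0 apart from Tomm34.

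Mlx, the shared partner, at chr11:101086707-101092207, was read by 2 probe sets on MA, and neither was called in a comparison. On 1418437_a_at it read 109, 81.6 and 171 at 25 mM and 109, 113 and 160.0 at 5 mM in GM. Its DM cultures read 111, 84.5 and 121 at 25 mM and 132, 132 and 146 at 5 mM. The cultures in DM at 5 mM lay above those in DM at 25 mM, a log2 difference of 0.33 (SE 0.22, adjusted p = 0.709).

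On 1425930_a_at, Mlx read 54.2, 76.8 and 65.7 at 25 mM and 74.6, 72.3 and 72.1 at 5 mM in GM. In DM the intensities were 73.6, 75.3 and 80.8 at 25 mM and 80.9, 84.5 and 98.6 at 5 mM. DM at 5 mM was again the highest group and did not overlap with DM at 25 mM, at a difference of 0.16 (SE 0.17, adjusted p = 0.863). Between media Mlx differed by -0.13 and 0.18 at 25 mM and by 0.11 and 0.21 at 5 mM on the 2 probe sets, all short of the threshold.

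Mlxip, which encodes MondoA, lies at chr5:123394521-123457932 and was read by 1426979_at on MA. It read 48.7, 74.4 and 78.5 at 25 mM and 73.4, 80.6 and 79.0 at 5 mM in GM. The DM readings were 63.4, 65.9 and 69.1 at 25 mM and 54.6, 59.2 and 62.6 at 5 mM. The cultures in DM at 5 mM lay below those in GM at 5 mM and below those in DM at 25 mM, but the differences were small, at -0.31 (SE 0.18, adjusted p = 0.234) and -0.13 (SE 0.18, adjusted p = 0.909). At 25 mM the difference between media was -0.00061 (SE 0.18, adjusted p = 0.998).

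Mlxipl, which encodes ChREBP, at chr5:135089890-135139768, was too dim to be tested on 1419185_a_at. It read 9.7, 6.42 and 18.6 at 25 mM and 20.7, 13.6 and 7.32 at 5 mM in GM. Its DM cultures read 18.5, 33.9 and 29.6 at 25 mM and 5.63, 21.8 and 37.3 at 5 mM. Without the filter, none of the 4 dim member probe sets was called in any of the 5 comparisons, and the smallest adjusted p was 0.0726 between media at 25 mM and 0.391 between glucose levels in GM.

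Over the members together, 5 of 9 tested probe sets were called for DM against GM at 25 mM, all lower, where 21.3% of all tested probe sets were called in either direction and 11.5% lower. By gene this was 3 of 6, Txnip, Arrdc3 and Arrdc1, beside 28.1% of all 12851 tested genes. The median log2 difference of the 6 genes was -0.54, and that of all tested genes was -0.11. Centring arrays on their median moves the median of all MA probe sets in this comparison from -0.11 to 0.09 and the share of higher calls from 46.1% to 65.4%, and 2 member probe sets were then called, Txnip 1415996_at at -1.04 and Arrdc3 at -1.52. The 5 member probe sets were lower without overlap, which was found for 20.3% of all tested probe sets.

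At 5 mM none of the 9 was called by limma, beside 17.6% of all tested probe sets. An unadjusted p under 0.05 was found in 1 of the 9, beside 7318 of all 27081. The median of the 6 genes was -0.26 and that of all tested genes was -0.03. Groups did not overlap in 2 member probe sets that were lower and 1 that was higher, beside 17.7% and 13.6% of all tested.

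For glucose, none of the 9 was called in either medium or in the interaction. In GM, 1 of all probe sets was called, 0.00369%, a probe set of the lipase gene Mgll that is named because it was the only one. Of all tested probe sets, 2405 had an unadjusted p under 0.05 there, 2 of them among the members, both of Txnip. In these 2 the groups did not overlap, which was found in the lower direction for 8.3% of all. In DM, 0.864% of all probe sets were called and 2178 had an unadjusted p under 0.05, 1 of them a member probe set. The DM groups did not overlap in Mlxip, which was lower at 5 mM, nor in the 2 Mlx probe sets, which were higher, beside 6.04% and 6.09% of all tested. In the interaction 0.284% were called and 2493 had an unadjusted p under 0.05, both Txnip probe sets among them.

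**Figure D3:**
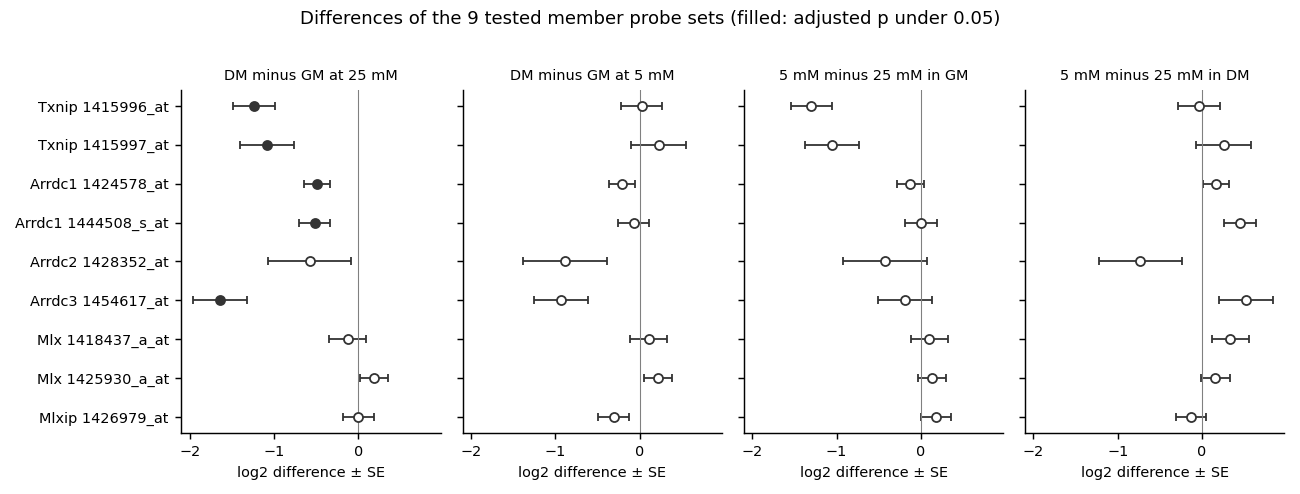
Log2 difference with its SE (x axis) of the 9 tested member probe sets (rows) in 4 comparisons, with filled points for an adjusted p under 0.05. The 5 filled points are all lower in DM at 25 mM, and the Txnip points of the glucose comparison in GM, at -1.30 and -1.05, are open.

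The other genes of this pathway come from 7 lists with 68 tested genes. The first holds 20 known targets of MondoA or ChREBP, of which 16 were tested. Between media at 25 mM, 4 were called higher and 3 lower, with a list median of -0.08. Of all tested genes, 12.2% were called higher there and 15.9% lower, and their median was -0.11. At 5 mM, 3 targets were called higher and 1 lower, with a list median of 0.29. Of all genes 23.2% were called in that comparison, 9.5% higher and 13.7% lower, with a median of -0.03.

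The largest of these differences was in Fgf21, a hormone that liver and stressed muscle release. Its probe set 1422916_at read 11.5, 16.2 and 30.8 at 25 mM and 5.59, 6.81 and 9.46 at 5 mM in GM. In DM the intensities were 1206, 1017 and 889 at 25 mM and 172, 280.0 and 304 at 5 mM. All DM cultures were far above all GM cultures, and in DM the cultures at 5 mM were all below those at 25 mM. All GM readings lay below the filter intensity of 35.5, so the probe set was tested through its DM readings, and the difference between media is a lower bound, taken with dimmer readings raised to that intensity. Fgf21 was higher in DM by at least 4.24 on the log2 scale at 25 mM and by at least 2.26 at 5 mM. The fitted differences, which are the ones tested, were 4.76 (limma adjusted p = 1.17e-09) and 3.28 (limma adjusted p = 6.01e-08). The fitted difference at 25 mM, 4.76, ran from 3.72 to 5.76 over the alternatives.

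In DM, Fgf21 fell by 1.99 from 25 to 5 mM (SE 0.22, adjusted p = 0.000293), where 1.35% of all genes were called, 0.91% lower. In GM both glucose groups lay below the filter intensity, so neither a glucose difference in GM nor an interaction is given for it.

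Bhlhe40, a circadian and hypoxia-responsive repressor, was the other target called for glucose in DM. On 1418025_at it read 69.1, 116 and 122 at 25 mM and 192, 189 and 133 at 5 mM in GM. The DM readings were 399, 325 and 409.5 at 25 mM and 198, 216 and 176 at 5 mM. Glucose at 5 mM thus went with higher levels in GM and lower levels in DM, without overlap in either medium. The difference in DM was -0.87 (SE 0.19, adjusted p = 0.0312) and that in GM 0.66 (SE 0.19, adjusted p = 0.404). The call in DM was lost in 9 of 24 alternatives, among them the replicate block (adjusted p = 0.0719).

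The remaining called targets differed between media, as did Bhlhe40, which was higher in DM by 1.72 at 25 mM (limma adjusted p = 6.98e-06). At 25 mM Khk and Elovl6 fell by 0.84 and 0.54, and Klf10 rose by 0.57 (limma adjusted p = 0.00551, 0.00512 and 0.0431). Tkt, a transketolase of the pentose phosphate pathway, fell by 1.63 at 25 mM and by 1.22 at 5 mM (adjusted p = 4.09e-06 and 7.5e-05). Rgs16, a regulator of G-protein signalling, averaged 24.3 and 21.3 in GM at 25 and 5 mM, below the filter intensity, and 77.0 and 107 in DM. Rgs16 was higher in DM by at least 0.65 at 25 mM and at least 1.18 at 5 mM. Its fitted differences, which are the ones tested, were 1.29 and 1.64 (limma adjusted p = 0.00765 and 0.00168). At 5 mM Fasn, the fatty acid synthase, rose by 0.55 (SE 0.11, adjusted p = 0.00115). None of the 16 targets was called for glucose in GM, and 2 had an unadjusted p under 0.05, beside 2405 of all 27081 tested probe sets.

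**Figure D4:**
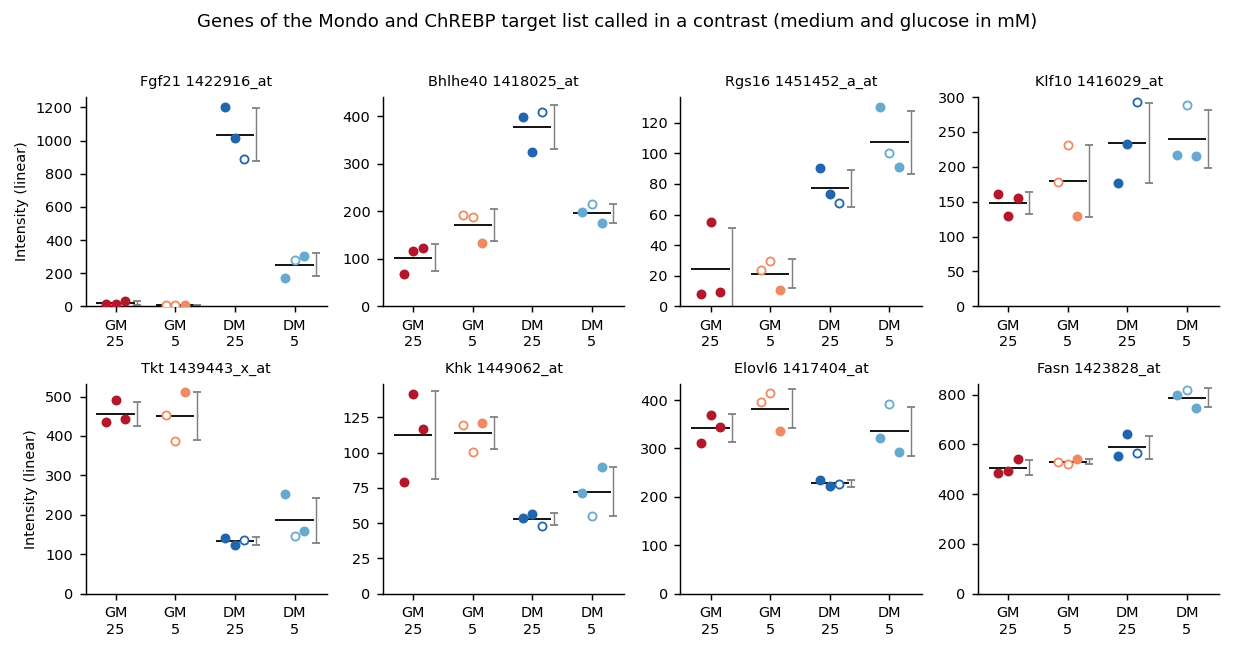
Linear intensity (y axis) of the 8 target-list genes called in at least 1 comparison, in the 12 cultures by medium and glucose in mM (x axis), with group means, SD bars (n = 3) and open symbols for low 18S controls. The DM cultures read 889 to 1206 for Fgf21 at 25 mM and 172 to 304 at 5 mM, and no GM culture reads above 30.8.

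The Max and Mlx network holds the other proteins of the basic helix-loop-helix leucine zipper class that pair with Max or Mlx, and all 10 of its genes were tested. At 25 mM 1 was called higher and 3 lower in DM, and at 5 mM 2 were higher and 2 lower. Of all tested genes, 12.2% were higher and 15.9% lower at 25 mM, and 9.5% and 13.7% at 5 mM. Mycl, a Myc paralogue, read 4.55 to 31.8 in GM, all below the filter intensity of 35.5, and 176 to 347 in DM. It was higher in DM by at least 2.18 at 25 mM and at least 2.48 at 5 mM. Mxd3 and Mxi1, repressors that pair with Max, fell by 1.52 and 0.79 at 25 mM and by 1.34 and 1.42 at 5 mM. Mnt, a repressor that pairs with Max and Mlx, fell by 0.52 at 25 mM, and Mxd4 rose by 0.46 at 5 mM. Mnt was called in 20 of 24 alternatives and Mxd4 in 17 of 24.

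In the thioredoxin system, whose central protein is the one that Txnip binds, 10 of 13 genes were tested, and at 25 mM 5 were called lower and 1 higher, beside 15.9% and 12.2% of all tested genes. Txn1, thioredoxin itself, read 3081 to 4648 over the 6 cultures in GM and 2076 to 2487 over the 6 in DM, with differences of -0.86 (SE 0.16, adjusted p = 0.000841) at 25 mM and -0.62 (SE 0.16, adjusted p = 0.00958) at 5 mM. The peroxidase gene Prdx4 fell by 1.14 and 1.13, and Srxn1, which repairs oxidised peroxiredoxins, by 0.88 and 1.11. Nxn, a thioredoxin relative, fell by 1.01 at 25 mM and by 0.53 at 5 mM. At 5 mM, 4 genes of the list were called lower and 1 higher, beside 13.7% and 9.5% of all tested genes. The higher one was Txnrd3, at 0.61 (limma adjusted p = 0.0341), which was called in 15 of 23 alternatives. Txn1 was thus lower in DM at both glucose levels, and Txnip was called at 25 mM.

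Of the 9 NEDD4-family ligase genes, the enzymes that Arrdc proteins recruit, 1 was called lower in DM at 25 mM, a share below the 15.9% of all tested genes, and 3 at 5 mM, beside 13.7%. Wwp2 fell by 0.87 and 1.20, with readings of 178 to 277 in GM and 84.7 to 112 in DM. Nedd4l and Wwp1 fell by 1.09 and 0.96 at 5 mM, and Wwp1 was called in 19 of 24 alternatives. Of 6 other arrestin-fold genes tested, 2 were called lower in DM at each glucose level, beside 15.9% of all tested genes at 25 mM and 13.7% at 5 mM. Arrb2, which encodes beta-arrestin 2, fell by 0.81 and 0.93 (limma adjusted p = 0.011 and 0.00562). The retromer genes Vps26b and Vps26a fell by 0.42 at 25 mM and by 0.63 at 5 mM (limma adjusted p = 0.0182 and 0.00702). Vps26b was called in 18 of 24 alternatives. The other 3 genes were not called between media.

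Of 10 tested genes for glucose uptake and phosphorylation, 3 were called lower in DM at 25 mM and 2 at 5 mM, beside 15.9% and 13.7% of all tested genes, and at 5 mM that is near the share over all genes. The glucose transporter gene Slc2a1 read 213 to 307 in GM and 127 to 175 in DM, and fell by 0.78 and 0.67. The hexokinase gene Hk1 fell by 0.85 and 0.63, and Slc2a8, a further transporter gene, by 0.59 at 25 mM. Slc2a8 was called in 15 of 23 alternatives. Hk2, also on the target list, differed by -0.09 and 0.13 and was not called.

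Of 8 genes for other factors known at the Txnip promoter, 2 were called higher and 1 lower in DM at 25 mM, beside 12.2% and 15.9% of all tested genes. At 5 mM 1 was higher and 1 lower, beside 9.5% and 13.7%, which is near the share over all genes. Foxo1 rose by 0.67 and 0.47 (limma adjusted p = 0.00488 and 0.0415), and Foxo3 rose by 0.51 at 25 mM. The glucocorticoid receptor gene Nr3c1 fell by 0.50 at 25 mM and Hif1a fell by 0.54 at 5 mM (limma adjusted p = 0.0369). Foxo3 and Nr3c1 were each called at 25 mM in 19 of 24 alternatives. At 5 mM Foxo1 was called in 12 of 24 alternatives and Hif1a in 16 of 24. For glucose in GM, none of the 68 genes of the 7 lists was called by limma, beside 0.00778% of all genes. An unadjusted p under 0.05 was found in 6 of the 68, near the share over all, 2405 of 27081 tested probe sets. In DM the 2 called were Fgf21 and Bhlhe40, beside 1.35% of all genes. An unadjusted p under 0.05 was found in 11 of the 68, a larger share than the 2178 of 27081 tested probe sets. In the interaction 1 was called, Bhlhe40, beside 0.467% of all genes. Here 14 of the 68 had an unadjusted p under 0.05, again a larger share than the 2493 of 27081 tested probe sets. These counts set genes beside probe sets, and the differences in share were not tested. Neither any Slc2a, thioredoxin-system nor arrestin-fold gene was called for glucose in either medium.

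**Figure D5:**
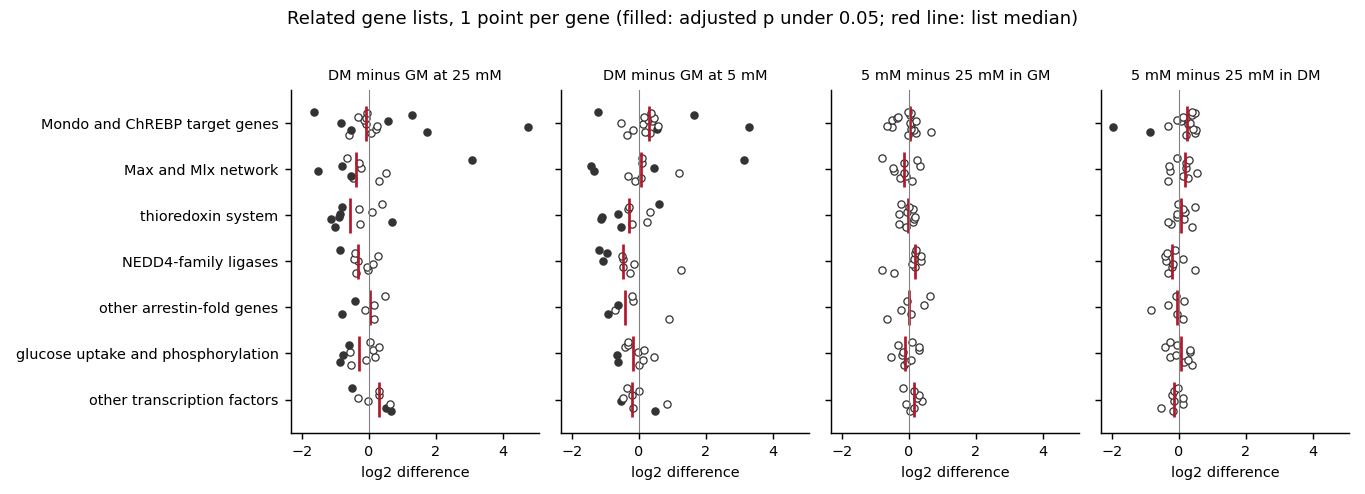
Log2 difference (x axis) of each tested gene of 7 related lists (rows, 1 point per gene) in 4 comparisons, with filled points for an adjusted p under 0.05 and a red line at the list median. Fgf21, Rgs16 and Mycl are drawn at their fitted values between media, although their GM groups are dim. Filled points are spread on both sides of 0 between media, and the 2 filled points for glucose are Fgf21 at -1.99 and Bhlhe40 at -0.87, both in DM.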

How the data were processed

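RNA of 12 C2C12 cultures was read on 2 array designs. The authors deposited linear probe set intensities, 1 table per design; how they were made, software and scaling included, is not given in the sources used here. They were kept as deposited, and the median of an array was 48.7 to 61.2 for MA and 69.0 to 96.5 for MB. The number of arrays limits the precision. The 64 control probe sets of each design were left out. Probe sets with a mean above the 40th percentile (35.5 on MA, 63.7 on MB) were tested, 13575 of 22690 and 13506 of 22575.

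Each design was fitted with limma 3.58.1 (R 4.3.3, statmod 1.5.0) on log2(intensity + 20), with 4 group means over all 12 arrays, eBayes with a trend (8 residual and 6.17 or 10.4 prior degrees of freedom) and 5 two-sided contrasts. P-values were adjusted by Benjamini-Hochberg within a design, and an adjusted p under 0.05 made a call. Counts are sums over MA and MB. For a gene, the brightest tested probe set that names no other gene was taken, from MA where possible. Probe sets naming 1 gene, several or none numbered 20380, 691 and 1555 on MA and 14661, 245 and 7605 on MB; Entrez IDs matched RefSeq's GRCm38.p6 genes for 20351 and 14486. Coordinates and promoters come from that annotation, with promoter windows for all 8 members. The members, the lists and the rule for named genes (all member probe sets, up to 4 called genes per list and contrast with the largest differences, and the 5 genes most like Txnip and Arrdc4) were chosen with earlier results of these data known. Some further called genes are named beside these. Tested on simulated data with DM against GM at 25 mM, the fit recovered 78% of log2 changes of 1 and 98% of changes of 2 on MA, and 20% and 75% on MB. False calls were 10 of 186 on MA and 3 of 98 on MB. The simulation changed far fewer probe sets than were called in the data, all brighter than the median, so these rates need not hold for the real comparisons. Alternatives were 12 settings, among them pseudocounts of 1 and 64, filters, scaling, array weights, the replicate block and the 18S class, and leaving out each of the 12 cultures.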

Additional observations from a re-analysis of the deposited data

Results flagged for a closer look

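The glucose difference of Bhlhe40 (1418025_at) was not the same in the 2 media. In GM the 5 mM cultures averaged 171 ± 32.9 and the 25 mM cultures 102 ± 29.0 (SD, n = 3 in each), and in DM they averaged 196 ± 19.9 and 378 ± 46.2. The difference in DM minus that in GM was -1.53 on the log2 scale (SE 0.27, limma adjusted p = 0.0211), with no overlap between glucose levels in either medium. It was called in 16 of 23 alternatives, with adjusted p from 0.00241 to 0.365. It was -1.23 (adjusted p = 0.365) with high-18S cultures alone, where GM at 5 mM holds 1 culture that is assumed to vary like the other groups, and not called with the replicate block (adjusted p = 0.0576).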

How the results depend on the processing

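The falls of Txnip 1415996_at and Arrdc3 in DM at 25 mM were called in 24 of 24 alternatives, at -1.42 to -0.96 and -1.86 to -1.33. Txnip 1415997_at was called in 18 of 23, Arrdc1 1424578_at in 18 of 24 and Arrdc1 1444508_s_at in 12 of 24, all with the same sign. The count of 5 member probe sets called there became 2 with median centring and 3 with high-18S cultures alone, and 2 to 5 when cultures were left out in turn: 2 without replicate 3 of GM at 25 mM or replicate 2 of DM at 25 mM, and 3 without replicate 1 or 2 of GM at 25 mM or replicate 3 of DM at 25 mM. Array weights raised the count from 0 to 1 for DM against GM at 5 mM and from 0 to 2 for glucose in GM, and the 18S block raised it from 0 to 1 in the interaction. The cause was not tested.

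Signs turned in small differences. For DM against GM at 5 mM, Txnip 1415996_at became -0.0095 with array weights, -0.037 with the 18S block, -0.14 with high-18S cultures alone and -0.26 to 0.29 with cultures left out, and Txnip 1415997_at became -0.11 with array weights and -0.079 to 0.51 with cultures left out. For glucose in DM the same probe sets ran from -0.32 to 0.23 and from -0.048 to 0.54 with cultures left out, and for glucose in GM Arrdc3 ran from -0.34 to 0.017. The 45 named differences of listed genes had 1075 values under the alternatives, of which 986 kept side and sign, 89 lost the call and 0 turned sign. These differences were picked because they were called, so a call could not be gained. Of 1666 list counts, 1558 stayed within 1.5 times, 66 fell and 42 rose.

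Cultures with the same replicate number did not deviate together (correlations -0.56 to 0.52 on MA, median -0.031). Low-18S cultures of different groups did (5 pairs, 0.32 to 0.72 on MA and 0.12 to 0.24 on MB), while pairs of unlike 18S class ran from -0.58 to 0.076 on MA. With the replicate block 4 member probe sets were called at 25 mM and 0 in the other 4 comparisons. Signal near background limits Arrdc4, Mlxipl and 1458613_at of Arrdc1.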
